A study of Mus musculus with 19 samples.

Results

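Genes of DNA replication and of mitosis were followed across 6 sorted cell populations of the newborn mouse limb. A list of 51 cell cycle genes was matched to the probe sets of an Affymetrix array of the mouse genome, and 50 of them had a probe set annotated to that gene alone. These 50, out of 18193 genes measured, comprise 22 genes of replication and 28 genes of mitosis. The mitotic cyclin Ccnb1 had no probe set of its own and has no value here. For a gene with several probe sets, the one of highest mean level in the neonatal arrays was taken.

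All neonatal cells came from fore and hind limbs at postnatal day 3 and were sorted as CD45-Ter119-Tie2-AlphaV+, that is, without the blood cell antigens CD45 and Ter119 and the endothelial receptor Tie2, and with the integrin chain alpha V. They were then divided by Thy, 6C3 (the aminopeptidase encoded by Enpep) and CD105 (endoglin, a co-receptor for ligands of the TGF beta family, encoded by Eng). Cells without Thy and 6C3 formed the populations Thy-6C3-CD105- and Thy-6C3-CD105+, cells with 6C3 alone Thy-6C3+CD105- and Thy-6C3+CD105+, and cells with Thy alone Thy+6C3-CD105- and Thy+6C3-CD105+. Each population has 3 arrays, 18 in all. The labels give a wild-type genotype, although the growth protocol speaks of mice carrying GFP, and each litter was pooled, so that an array mixes several animals. Nothing in the labels says that the 3 arrays of a population came from separate litters, and the p-values then measure the spread between these arrays, which may be technical. One further array holds adult Thy+6C3+CD105+ cells and entered no test. Its source field names sternum and ear, whereas its tissue field names limbs.

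A dividing cell copies its DNA once, in S phase, and separates the copies in mitosis. Origins are licensed by Cdc6, Cdt1 and the Mcm helicase, and forks then run with the sliding clamp Pcna and nucleotides made by ribonucleotide reductase, thymidylate synthase and thymidine kinase. Cyclin-dependent kinase 1 with cyclins A and B starts mitosis, after which kinesins, centromere proteins, the spindle checkpoint and the anaphase-promoting complex order chromosome segregation. Replication genes are switched on mostly by E2F factors released from the retinoblastoma protein, and mitotic genes mostly by the MuvB complex with B-Myb and Foxm1, which acts through a CHR element and nearby CCAAT boxes. In the growing limb, dividing cells include cartilage cells of the growth plate and the mesenchyme of perichondrium and tendon.

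Promoters of the replication and mitosis genes held different short elements, given here as counts with no test. RefSeq windows of 300 bases (250 before and 50 after the start site, build GRCm38.p6) were at hand for 43 of the 51 listed genes, Ccnb1 among them. On either strand, a CHR word (TTTGAA or TTCGAA) occurred in 20 of 25 mitosis genes (80%) and in 3 of 18 replication genes (16.7%), against 21.7% of all 27025 genes with a window. The CCAAT word occurred in 84% of the mitosis genes and 61.1% of the replication genes, against 41.1% of all genes. An E2F word (TTTCCCGC, TTTCGCGC, TTTGCCGC or TTTGGCGC) occurred in 7 replication genes (38.9%), namely Cdc6, Cdt1, Mcm3, Mcm5, Mcm6, Mcm7 and Uhrf1, and in a single mitosis gene, Cdk1 (4%), against 2.61% of all genes. CHR and CCAAT words stood together in 72% of the mitosis genes, 16.7% of the replication genes and 9.65% of all genes. A match is a description of letters and not a binding site. Over the members, 126 matches were found, and 1 of them overlapped a match of another element.

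The following stretches upstream of the start site show the contrast. They are written 5′ to 3′ on the strand of the gene, with the words of all 3 elements, on either strand, in capitals, and leave out bases that lie within RefSeq transcripts of the gene. Cdk1, Mki67 and Top2a carry the CHR and CCAAT arrangement, and Mcm5 and Mcm6 carry E2F and CCAAT words without a CHR. The Cdk1 stretch lies at chr10:69352913-69353162 on the minus strand, Mki67 at chr7:135716451-135716629 on the minus strand, Top2a at chr11:99024200-99024439 on the minus strand, Mcm5 at chr8:75109259-75109467 on the plus strand and Mcm6 at chr1:128359706-128359955 on the minus strand.
Cdk1: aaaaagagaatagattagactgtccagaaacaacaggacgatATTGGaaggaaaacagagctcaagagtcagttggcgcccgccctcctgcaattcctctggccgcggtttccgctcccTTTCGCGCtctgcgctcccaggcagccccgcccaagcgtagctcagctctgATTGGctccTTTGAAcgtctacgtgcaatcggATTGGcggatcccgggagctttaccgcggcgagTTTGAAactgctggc
Mki67: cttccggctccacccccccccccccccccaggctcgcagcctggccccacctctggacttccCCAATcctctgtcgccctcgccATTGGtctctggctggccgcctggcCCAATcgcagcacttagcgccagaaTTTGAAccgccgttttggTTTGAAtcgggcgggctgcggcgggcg
Top2a: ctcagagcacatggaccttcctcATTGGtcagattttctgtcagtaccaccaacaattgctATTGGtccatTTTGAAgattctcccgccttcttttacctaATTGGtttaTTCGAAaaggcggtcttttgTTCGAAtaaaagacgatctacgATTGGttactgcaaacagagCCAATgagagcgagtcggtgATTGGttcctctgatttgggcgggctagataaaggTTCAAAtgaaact
Mcm5: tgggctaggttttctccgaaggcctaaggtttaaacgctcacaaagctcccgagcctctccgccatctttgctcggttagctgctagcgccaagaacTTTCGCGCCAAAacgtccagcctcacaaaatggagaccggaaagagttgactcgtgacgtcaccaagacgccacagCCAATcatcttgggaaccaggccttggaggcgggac
Mcm6: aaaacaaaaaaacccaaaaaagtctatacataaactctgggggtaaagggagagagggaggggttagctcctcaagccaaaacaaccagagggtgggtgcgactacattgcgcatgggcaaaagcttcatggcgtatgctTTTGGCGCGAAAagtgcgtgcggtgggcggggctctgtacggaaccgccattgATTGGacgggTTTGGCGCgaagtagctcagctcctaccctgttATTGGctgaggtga
In Cdk1 the CHR words begin 71 and 15 bases before the start site, and in Mki67 116 and 98 bases before it. Cdk1 is the one mitosis gene that also holds an E2F word, 131 bases before its start.

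The levels below are log2 values of the deposited table after quantile normalization over the arrays. A difference of 1 is a doubling, and the median gene lay at 6.76. Of the 3 antigens used to divide the cells, Thy1 and Enpep followed the population labels at the RNA level. Thy1 means were 10.34 and 10.23 in the Thy+ populations and between 5.37 and 5.81 in the others, and Enpep means were 10.84 and 10.97 in the 6C3+ populations and at most 8.32 elsewhere. Eng, which encodes CD105, followed them less cleanly. Its arrays read 8.17 to 8.83 in the CD105+ populations and 6.65 to 7.82 in Thy-6C3-CD105- and Thy-6C3+CD105-, but 7.51 to 8.58 in Thy+6C3-CD105-, which overlaps with the CD105+ arrays. Replicates 2 and 3 of Thy-6C3+CD105- are titled Thy+, yet Thy1 read between 5.71 and 5.95 over the 3 arrays of that population. Ptprc, which encodes CD45, had means from 4.03 to 4.72. Tek, which encodes Tie2, read 5.96 and 6.39 in the Thy+ populations and below 5 in the others. The third array of Thy+6C3-CD105- had the lowest mean correlation with its own population (0.943), and the second array of Thy-6C3+CD105- had the lowest hybridization controls (8.40, against 10.03 or more elsewhere). In sorted bulk samples a lower level can mean fewer cycling cells or less RNA per cell, and these cannot be told apart.

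By population mean, both gene groups were highest in Thy+6C3-CD105+ cells and lowest in Thy-6C3-CD105- cells. Of the 50 genes, 33 had their highest population mean in Thy+6C3-CD105+ (16 replication and 17 mitosis genes), 11 in Thy+6C3-CD105-, 5 in Thy-6C3+CD105+, with the last 1 in Thy-6C3-CD105+. The lowest mean fell in Thy-6C3-CD105- for 36 genes, 23 of them mitotic. Averaged over the replication genes, the deviation from each gene's mean over the 18 arrays was 0.37 ± 0.02 (SD, n = 3) in Thy+6C3-CD105+, 0.24 ± 0.06 in Thy-6C3+CD105+, -0.05 ± 0.09 in Thy-6C3-CD105+, -0.06 ± 0.28 in Thy+6C3-CD105-, -0.14 ± 0.17 in Thy-6C3+CD105- and, lowest, -0.35 ± 0.28 in Thy-6C3-CD105-. For the mitosis genes it was 0.45 ± 0.14, 0.21 ± 0.07, -0.25 ± 0.06, 0.24 ± 0.10, -0.13 ± 0.22 and -0.51 ± 0.35 in the same order. The Thy+6C3-CD105+ arrays lay above those of every other population in both groups (at least 0.36 for replication and 0.35 for mitosis). The 3 arrays of Thy-6C3+CD105+ came next for replication, also without overlap, and overlapped with Thy+6C3-CD105- for mitosis. For mitosis, the arrays of Thy-6C3+CD105+ (0.16 to 0.29) also lay above those of the next population, Thy-6C3+CD105- (-0.38 to 0.04). The remaining neighbours in each order overlapped. The low means of Thy-6C3-CD105- lean on replicate 3. Its arrays read -0.17, -0.22 and -0.68 for replication and -0.23, -0.40 and -0.90 for mitosis.

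**Figure D1:**
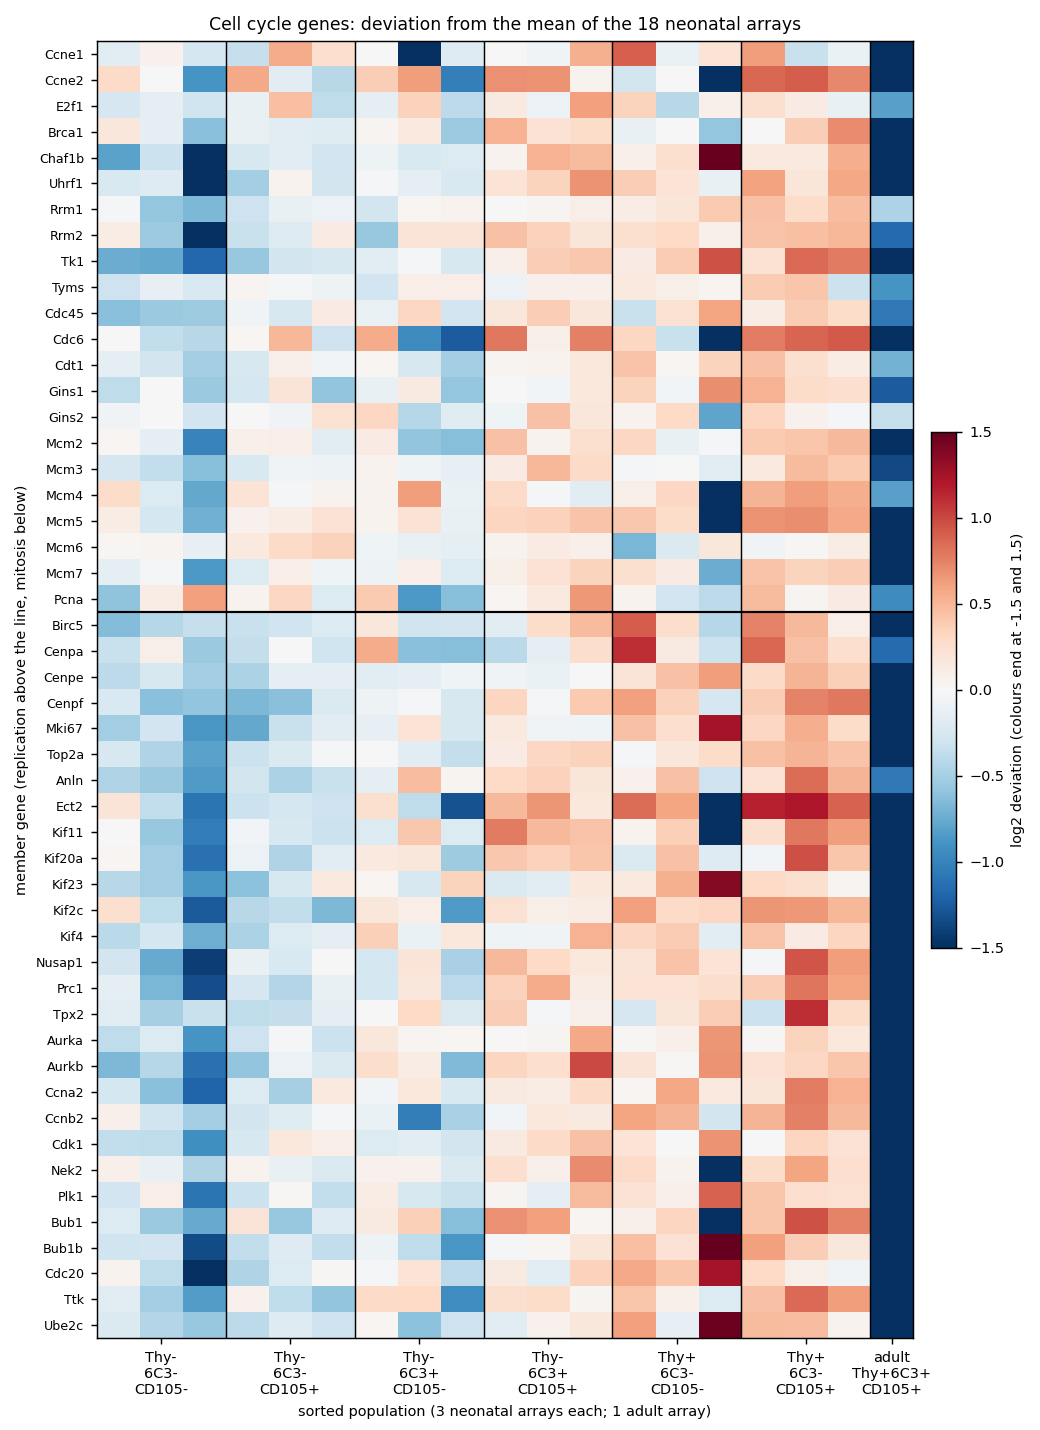
Heat map of the 50 cell cycle genes (rows, replication above the line) in the 18 neonatal arrays and the adult array (columns, by population). Colour gives each gene's log2 level minus its mean over the 18 arrays; the Thy+6C3-CD105+ columns stand above the mean for 44, 49 and 45 of the 50 genes, and replicate 3 of Thy-6C3-CD105- for 1.

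The 2 groups did not move together in every array. Over the 18 arrays the replication and mitosis means correlated at r = 0.86 (Pearson, given as a description, since both come from the same arrays). Pairs of mitosis genes had a median correlation of 0.60, pairs of replication genes 0.35 and mixed pairs 0.45. In replicate 3 of Thy+6C3-CD105- the mitosis mean was 0.12 and the replication mean was -0.38, a gap of 0.50, the widest of the 18 arrays. Thy+6C3-CD105- was also the lowest population for 8 genes, of which 7 belong to replication. On that array Mcm5 read 6.16, Cdc6 4.78 and Ccne2 3.84, against 9.96 and 9.84, 7.09 and 6.45, and 6.55 and 6.82 in the other arrays of the population.

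**Figure D2:**
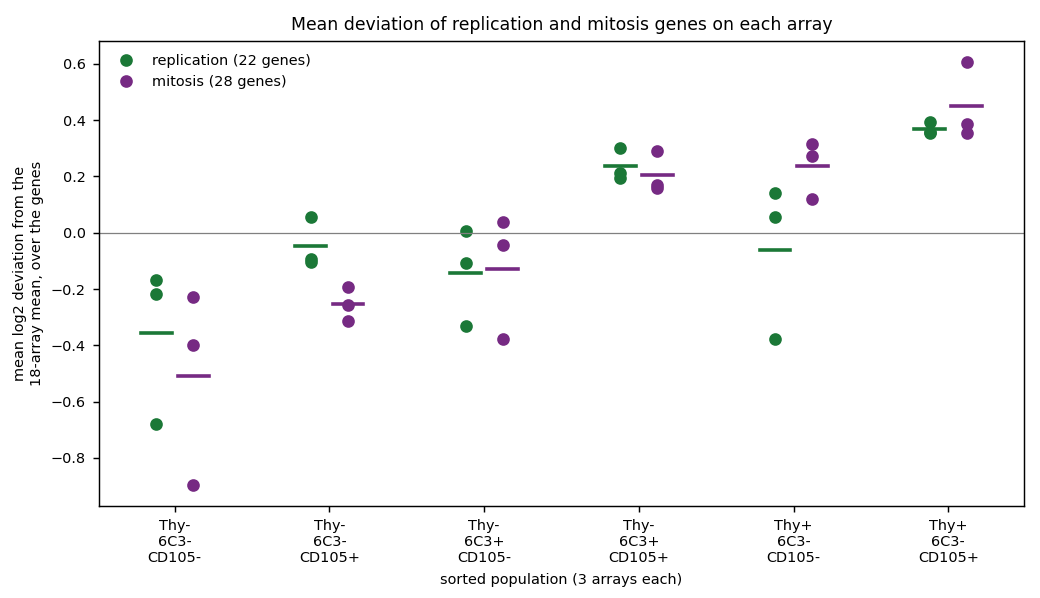
Mean deviation of the 22 replication genes and the 28 mitosis genes from their 18-array means (log2, vertical axis) in each array, by population. Points are arrays and short lines are population means; the Thy+6C3-CD105+ arrays lie at 0.36 to 0.39 for replication, and Thy-6C3-CD105- replicate 3 is lowest at -0.68 and -0.90.

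Whether the 6 populations differed at all was asked gene by gene with a moderated F-test. At an adjusted p under 0.05 over all genes tested, 14 of the 50 members differed between populations, where 10.1% of all genes did. They were 4 of 22 replication genes (Mcm3, Rrm1, Tk1 and Chaf1b) and 10 of 28 mitosis genes (Anln, Aurkb, Ccna2, Cdk1, Cenpe, Cenpf, Mki67, Nusap1, Prc1 and Top2a). The smallest adjusted p values were those of Tk1 (0.000857) and Top2a (0.00656). The count fell to 7 without replicate 2 or 3 of Thy+6C3-CD105+ or replicate 3 of Thy-6C3-CD105-, to 9 without replicate 2 of Thy-6C3-CD105- or replicate 2 or 3 of Thy-6C3+CD105+, and stood at 22 without the 2 arrays that stand apart.

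By the number of members called and by the median difference, the comparisons along Thy, in cells without 6C3, came first. Among CD105- cells, 20 of 50 genes were higher in Thy+6C3-CD105- than in Thy-6C3-CD105- and none was lower, where 10.5% of all genes were higher and 7.45% lower. Of these, 15 belong to mitosis (of 28) and 5 to replication (of 22: Tk1, Rrm1, Chaf1b, Cdc45 and Cdt1). Among CD105+ cells, 7 genes were higher in Thy+6C3-CD105+ than in Thy-6C3-CD105+ and none was lower, where 4.03% of all genes were higher and 2.63% lower. These were Cenpf, Kif2c, Tk1, Anln, Prc1, Top2a and Cenpe. The 2 comparisons share no array, and 6 genes passed in both (Anln, Cenpe, Cenpf, Prc1, Tk1 and Top2a), which are 85.7% of the 7 and 30% of the 20. The median difference over all 50 genes was 0.64 in CD105- cells and 0.60 in CD105+ cells, against 0.13 and -0.02 over all genes. Of the 50 genes, 41 and 48 had a difference above 0, against 61.5% and 47.4% of all genes. The 3 arrays of each population did not overlap, with the Thy+ side higher, for 24 genes in CD105- cells (23.0% of all genes) and for 38 in CD105+ cells (14.4% of all genes). With the Thy+ side lower this held for 0 and 1 genes (11.7% and 11.8% of all genes).

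Other probe sets of the same genes, 65 in all, gave a difference above 0 for 49 in CD105- cells and 43 in CD105+ cells. Of the 24 with a level above the median gene, 19 and 20 did. Their median differences were 0.26 and 0.17 over the 65 and 0.34 and 0.28 over the 24, smaller than the 0.64 and 0.60 of the probe sets used.

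The count in CD105- cells rested on scaling and on single arrays. With values as deposited it was 8 higher and 1 lower, and with each array centred on its median 6 higher and 1 lower, while the all-gene median of 0.13 became 0.09 and -0.05 and the median of the 50 genes 0.42 and 0.28. It was 6 without replicate 3 of Thy-6C3-CD105-, and 18, with 48 genes above 0, without the 2 arrays that stand apart. The count in CD105+ cells was 1 without replicate 2 or replicate 3 of Thy+6C3-CD105+, 2 without replicate 1 or replicate 2 of Thy-6C3-CD105+, 3 without its replicate 3, 4 without replicate 1 of Thy+6C3-CD105+, 11 without replicate 3 of Thy+6C3-CD105- and 13 without the 2 arrays that stand apart. A fit of the compared populations only gave 1 call in CD105- and 20 in CD105+ cells, and array weights gave 21 in CD105+ cells. Shares over all genes under these alternatives are not given here, so a change in count may not be particular to the 50 genes. With each gene as the mean of its probe sets the count in CD105+ cells was 4, and Cenpf, Cenpe, Top2a and Kif2c no longer passed there.

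Among the licensing and fork genes, only Cdt1 and Cdc45 passed along Thy, and only in CD105- cells. Mcm3, a subunit of the replicative helicase, read 8.63, 8.50 and 8.24 in Thy-6C3-CD105- against 9.02, 9.35 and 9.27 in Thy+6C3-CD105+, with the 6C3+CD105+ arrays between 9.0 and 9.38. It passed the F-test (adjusted p = 0.0328) but neither Thy comparison. Cdt1, which loads the helicase onto origins, read 9.58, 9.44 and 9.21 in Thy-6C3-CD105- against 10.14, 9.74 and 10.05 in Thy+6C3-CD105-. These arrays did not overlap, and the difference was 0.57 ± 0.18 (SE; adjusted p = 0.0376). Cdc45, the helicase cofactor, read 6.25, 6.33 and 6.35 against 6.56, 7.11 and 7.48, a rise of 0.74 ± 0.23 (adjusted p = 0.0327). Mcm2 did not pass, with differences of 0.43 ± 0.25 in both CD105 states.

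Mcm5 and Pcna behaved unlike these. Mcm5, another helicase subunit, read 9.67, 9.29 and 8.83 in Thy-6C3-CD105- against 9.62, 9.67 and 9.78 in Thy-6C3-CD105+ cells. The 6C3+ arrays read 9.60, 9.77 and 9.44 in CD105- and 9.88, 9.90 and 9.99 in CD105+ cells, and Thy+6C3-CD105+ was higher at 10.23, 10.26 and 10.12. In Thy+6C3-CD105- it read 9.96, 9.84 and 6.16, so that the difference along Thy in CD105- cells, -0.61 ± 0.62, includes the low array. Its highest population was Thy+6C3-CD105+, whose arrays overlapped with no other population. Pcna, the sliding clamp, ranged from 10.15 to 11.66 with every population overlapping the others, and its differences along Thy were -0.25 ± 0.31 and 0.16 ± 0.31. Mcm6 was the one gene whose arrays lay apart with Thy+6C3-CD105+ lower, at 9.73, 9.80 and 9.89 against 9.92, 10.06 and 10.13, a difference of -0.23 ± 0.18 that did not pass.

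Among the nucleotide enzymes Tk1, thymidine kinase, stood out. It read 8.03, 8.01 and 7.60 in Thy-6C3-CD105- against 8.90, 9.15 and 9.73 in Thy+6C3-CD105-. In the CD105+ counterparts it read 8.21, 8.50 and 8.54, then 9.0, 9.62 and 9.55. Every Thy+ array lay above every Thy-6C3- array. The rise was 1.38 ± 0.23, or 2.61-fold (adjusted p = 0.00059), in CD105- cells and 0.97 ± 0.23, or 1.97-fold (adjusted p = 0.0117), in CD105+ cells. The 6C3+ populations lay between, at 8.61, 8.76 and 8.54 in CD105- and 8.86, 9.14 and 9.18 in CD105+ cells. In CD105- cells the Tk1 call held in all 27 alternative analyses.

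Rrm1 and Rrm2 encode the large and small subunits of ribonucleotide reductase. Rrm1 read 9.92, 9.37 and 9.28 in Thy-6C3-CD105- against 10.06, 10.14 and 10.34 in Thy+6C3-CD105-, a rise of 0.66 ± 0.18 (adjusted p = 0.0179). Averaged over its probe sets the difference was -0.0026 (adjusted p = 0.993), so that this call belongs to 1 probe set. Rrm2 missed the threshold (0.99 ± 0.35, adjusted p = 0.0545), with Thy-6C3-CD105- arrays spread from 8.24 to 10.28. Tyms, thymidylate synthase, read between 4.47 and 5.20 over all 18 arrays, below the median gene.

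The regulators of the step from G1 to S did not pass in any comparison. E2f1, the factor that activates replication genes, ranged from 7.10 to 8.14 over the 18 arrays, with the Thy+ arrays overlapping the Thy-6C3- arrays in both CD105 states, and its differences along Thy were 0.23 ± 0.26 and 0.10 ± 0.26. Ccne1 and Ccne2, the cyclins that drive Cdk2 into S phase, gave 0.46 ± 0.38 and -0.89 ± 0.59 in CD105- cells. The Ccne2 value includes the low array named above.

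Chromatin assembly and repair genes were mixed. Chaf1b, a subunit of the factor that places histones behind the fork, read 6.71, 7.18 and 5.97 in Thy-6C3-CD105- against 7.58, 7.75 and 9.14 in Thy+6C3-CD105-. The rise was 1.54 ± 0.34, or 2.90-fold (adjusted p = 0.00586), and the arrays did not overlap. Uhrf1, which carries DNA methylation through replication, differed by 0.80 ± 0.29 (adjusted p = 0.0617) and Brca1, a repair factor, by -0.03 ± 0.25.

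**Figure D3:**
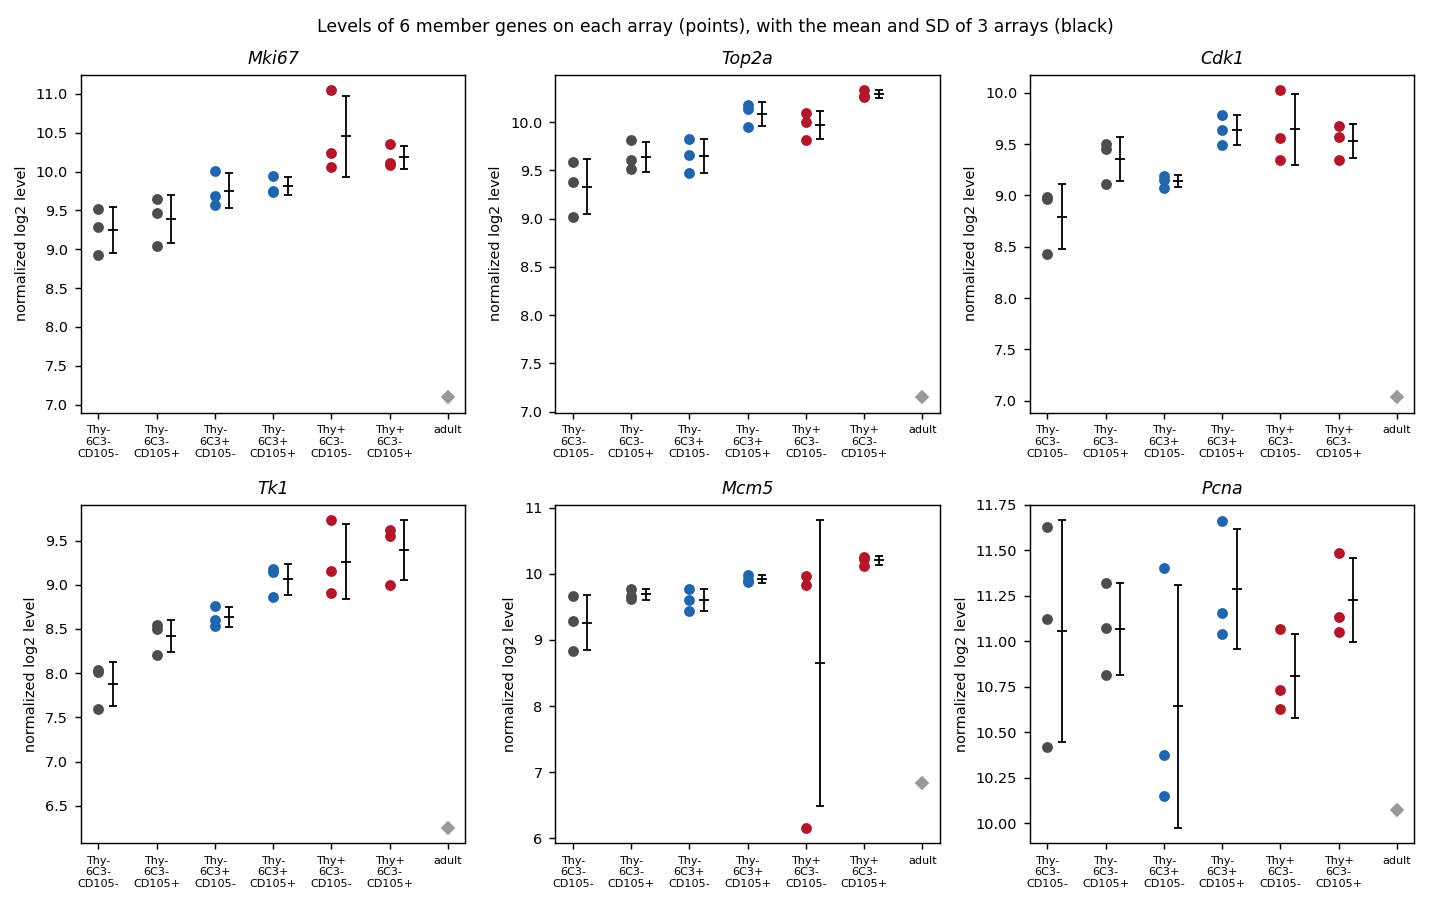
Log2 level (vertical axis) of Mki67, Top2a, Cdk1, Tk1, Mcm5 and Pcna in every neonatal array, by population. Points are arrays (diamond, the adult array) and black bars give the mean and SD of 3 arrays; Tk1 separates Thy+ from Thy-6C3- populations, Mcm5 has a single array at 6.16, and the Pcna populations overlap.

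Of the 7 mitotic cyclins and kinases, 4 were higher in Thy+6C3-CD105- than in Thy-6C3-CD105- cells. Cdk1, the kinase that starts mitosis, read 8.99, 8.97 and 8.43 in Thy-6C3-CD105- against 9.56, 9.35 and 10.03 in Thy+6C3-CD105-. It rose by 0.85 ± 0.20, or 1.80-fold (adjusted p = 0.00993). In CD105+ cells it read 9.11, 9.51 and 9.45, then 9.35, 9.67 and 9.57, which overlap (0.17 ± 0.20). Ccna2, cyclin A2, read 8.67, 8.31 and 7.73 against 8.97, 9.51 and 9.08 in CD105- cells, a rise of 0.95 ± 0.25 (adjusted p = 0.0145). Aurkb and Aurka, the Aurora kinases of the centromere and of the spindle poles, rose by 1.03 ± 0.28 and 0.75 ± 0.23 in CD105- cells. Ccnb2, a B-type cyclin, and Plk1, polo-like kinase 1, did not pass (0.52 ± 0.26 and 0.82 ± 0.28).

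Genes of the spindle checkpoint and the anaphase-promoting complex held the largest rise, and their values depended on single arrays. Bub1b, a checkpoint kinase homologue, read 8.02, 8.03 and 6.97 in Thy-6C3-CD105- against 8.77, 8.53 and 10.51 in Thy+6C3-CD105-. The rise was 1.60 ± 0.40, or 3.02-fold (adjusted p = 0.0119), and without replicate 3 of Thy+6C3-CD105- it was 0.97 (adjusted p = 0.0418). Cdc20, the activator that targets securin and cyclin B, read 10.20, 9.77 and 8.47 against 10.72, 10.57 and 11.41. It rose by 1.42 ± 0.33, or 2.67-fold (adjusted p = 0.00884), and by 0.91 without replicate 3 of Thy-6C3-CD105- (adjusted p = 0.0402). Ube2c, the ubiquitin-conjugating enzyme of the complex, rose by 1.06 ± 0.30 (adjusted p = 0.0217). Without replicate 3 of Thy+6C3-CD105- its difference was 0.65 and no longer passed (adjusted p = 0.101). Ttk, the kinase that sets the checkpoint, missed the threshold in CD105+ cells (0.94 ± 0.30, adjusted p = 0.0706).

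Of the 4 centromere genes, Cenpf and Cenpe rose in both CD105 states. Cenpf, a kinetochore protein of late cell cycle, read 7.30, 7.35 and 7.76 in Thy-6C3-CD105+ against 8.35, 8.72 and 8.77 in Thy+6C3-CD105+. It rose by 1.14 ± 0.23, or 2.21-fold (adjusted p = 0.00377). In CD105- cells it rose by 0.72 ± 0.23 (adjusted p = 0.0399), with 7.73 in the lowest Thy+ array just below 7.75 in the highest Thy- array. Cenpe, the kinetochore kinesin, read 6.41, 6.74 and 6.74 in the Thy- and 7.17, 7.39 and 7.24 in the Thy+ arrays of CD105+ cells, a rise of 0.64 ± 0.18 (adjusted p = 0.0344). In CD105- cells the arrays read 6.49, 6.65 and 6.37, then 7.08, 7.33 and 7.52, a rise of 0.81 ± 0.18 (adjusted p = 0.00515). Birc5 (survivin) and Cenpa, the centromeric histone, did not pass in either state.

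Kinesins and spindle proteins passed for 4 of 8 genes in one state or both. Prc1, which bundles the midzone of the spindle, read 8.98, 8.43 and 7.79 in Thy-6C3-CD105- against 9.33, 9.32 and 9.39 in Thy+6C3-CD105-. It rose by 0.94 ± 0.25 (adjusted p = 0.0158), and by 0.86 ± 0.25 in CD105+ cells (adjusted p = 0.0451). Kif23, a midzone kinesin, read 7.78, 7.68 and 7.32 against 8.35, 8.73 and 9.58 and rose by 1.29 ± 0.28, or 2.45-fold (adjusted p = 0.00477). Nusap1, a microtubule-binding protein, rose by 1.09 ± 0.28 (adjusted p = 0.0139) in CD105- cells. Kif2c, which depolymerizes microtubules at kinetochores, read 7.16, 7.21 and 6.91 in Thy-6C3-CD105+ against 8.24, 8.22 and 8.07 in Thy+6C3-CD105+, a rise of 1.09 ± 0.31, or 2.12-fold (adjusted p = 0.0399). That call was lost in 12 of 27 alternative analyses. Kif4, Kif11, Kif20a and Tpx2 did not pass.

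Of the cytokinesis genes, Anln (anillin, of the contractile ring) rose by 0.88 ± 0.22 in CD105+ cells (adjusted p = 0.0195) and 0.69 ± 0.22 in CD105- cells (adjusted p = 0.0412). Its arrays read 8.46, 8.27 and 8.41 in Thy-6C3-CD105+ against 8.95, 9.57 and 9.25 in Thy+6C3-CD105+. Ect2, which activates the small GTPase RhoA, read 8.78, 8.82 and 8.49 in Thy+6C3-CD105+ against 7.29, 7.35 and 7.30 in Thy-6C3-CD105+, yet its difference of 1.39 ± 0.59 did not pass (adjusted p = 0.236), with 1 array of Thy+6C3-CD105- at 5.23.

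The proliferation markers Mki67, a protein that coats mitotic chromosomes, and Top2a, the topoisomerase that untangles them, had levels well above the median gene. Mki67 read 9.29, 9.52 and 8.93 in Thy-6C3-CD105- against 9.04, 9.47 and 9.65 in Thy-6C3-CD105+. It read 9.69, 10.01 and 9.56 in Thy-6C3+CD105- against 9.95, 9.75 and 9.74 in Thy-6C3+CD105+. The Thy+ arrays read 10.24, 10.06 and 11.05 in CD105- and 10.12, 10.35 and 10.08 in CD105+ cells, and all 6 lay above every other array. Along Thy, Mki67 was among the mitosis genes that passed in CD105- cells. Its difference in CD105+ cells, 0.80 ± 0.24, missed the threshold (adjusted p = 0.0583). Top2a read 9.58, 9.38 and 9.02, then 9.81, 10.00 and 10.10 along Thy in CD105- cells, and 9.51, 9.61 and 9.81, then 10.27, 10.33 and 10.26 in CD105+ cells. The rise was 0.64 ± 0.17, or 1.56-fold, in each state (adjusted p = 0.0173 and 0.0273).

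**Figure D4:**
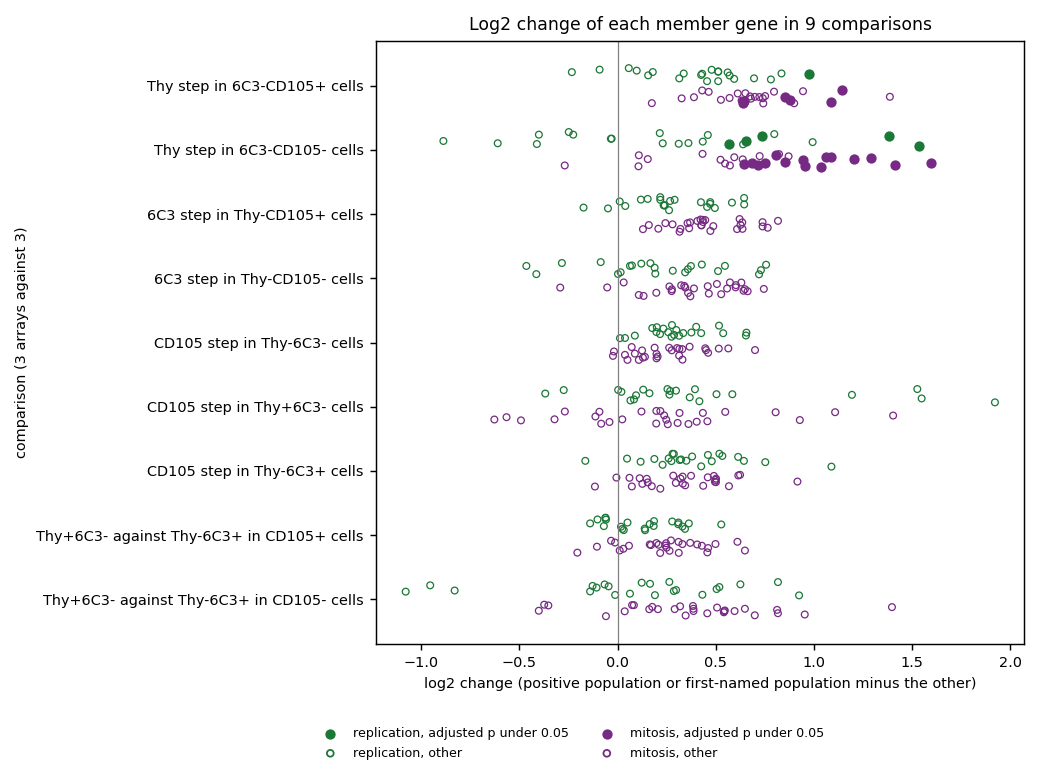
Log2 difference (horizontal axis) of each of the 50 genes in the comparisons along Thy, 6C3 and CD105 and of Thy+6C3- with Thy-6C3+ cells (rows), with replication genes in green and mitosis genes in purple. Filled points passed the test, and they occur only along Thy, 20 in CD105- and 7 in CD105+ cells.

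Whether the Thy difference itself depended on CD105 was tested with an interaction term. None of the 50 genes passed in limma (0.269% of all genes did), and 4 had an unadjusted p under 0.05, where 16.7% of all genes did. The term for 6C3 and CD105 gave none in limma (0.0% of all genes) and 0 at an unadjusted p under 0.05 (2.98% of all genes). A gene that passed along Thy in a single CD105 state was therefore not shown to differ between the states.

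Along 6C3, differences were smaller and none passed. In CD105+ cells, Thy-6C3+ against Thy-6C3- gave 0 of 50 calls with limma (1.36% of all genes) and 8 at an unadjusted p under 0.05 (7.61% of all genes). The median difference was 0.41, and for 28 genes the 6C3+ arrays all lay higher, where 9.31% of all genes had such arrays. Cenpf differed by 0.74 (adjusted p = 0.182). In CD105- cells the comparison gave 0 calls with limma (2.74% of all genes), 13 at an unadjusted p under 0.05 (13.9% of all genes) and a median of 0.34. Over all genes the median of this comparison was 0.07, and 59.2% lay above 0. With single arrays left out the median of the 50 genes ran from 0.16 to 0.46, with 33 to 46 genes above 0. Among the arrays of high poly-A control RNA described below it was 0.05, with 28 genes above 0, beside 0.07 for all genes. Among those of low control RNA it was 0.58, with 48 above 0. The high set holds only 1 array of Thy-6C3-CD105-. With all arrays, Anln and Tk1 came nearest to passing, with 0.75 and 0.76 (adjusted p = 0.0921 and 0.0974). Without replicate 3 of Thy+6C3-CD105-, which enters this comparison only through the shared spread, 2 genes passed.

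Along CD105, the 50 genes leaned higher on the CD105+ side without passing. The median differences were 0.28 in Thy-6C3- cells (0 calls with limma, where 0.0055% of all genes were called), 0.25 in Thy+6C3- cells (0 calls, 1.02% of all genes) and 0.33 in Thy-6C3+ cells (0 calls, 0.0% of all genes). At an unadjusted p under 0.05 the counts were 4 (1.75% of all genes), 11 (22.4% of all genes) and 6 (2.74% of all genes), so that the 11 of 50 in Thy+6C3- cells stood at the share of all genes. The median differences stand against medians of 0.03, -0.08 and -0.02 over all genes. With single arrays left out, they ran from 0.08 to 0.39 in Thy-6C3- and from 0.20 to 0.29 in Thy+6C3- cells. In Thy-6C3+ cells the range was 0.23 to 0.45. The lean in Thy-6C3- cells was not seen among the arrays of high poly-A control RNA described below. In Thy+6C3- cells the licensing and fork genes had all 12 differences above 0 with a median of 0.38, while 9 of 28 mitosis genes lay below 0. Under median centring 2 members passed there and the median of the 50 genes was 0.72, beside 0.15 for all genes. Cdc6 and Ccne2, with 1.53 and 1.92, contain the low array of Thy+6C3-CD105-.

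Thy+6C3- and Thy-6C3+ cells were also set against each other. In CD105+ cells no member passed with limma (2.59% of all genes did), 1 had an unadjusted p under 0.05 (7.79% of all genes), and the median difference was 0.20 in favour of Thy+. In CD105- cells none passed (2.24% of all genes), 12 had an unadjusted p under 0.05 (18.1% of all genes), and the median was 0.29, made up of 0.39 for mitosis genes and 0.14 for replication genes. Bub1b came nearest (1.40, adjusted p = 0.0761). Leaving out replicate 1 or 3 of Thy+6C3-CD105- gave 1 call and leaving out its replicate 2 gave 2. Grouping arrays by title instead of by population left 0 calls in the comparisons it touches.

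Cell type markers changed along Thy as well, and their part in the differences above was not tested. The counts stand beside 4.03% of all genes higher and 2.63% lower in CD105+ cells, and 10.5% and 7.45% in CD105- cells. With such shares, 1 or 2 calls in a list of 8 or 10 are not read as a sign of those cells. All 10 chondrocyte markers were lower on the Thy+ side, with a list mean of 12.3 to 12.4 in Thy-6C3-CD105+ against 9.51 to 9.90 in Thy+6C3-CD105+, and of 12.4 to 12.5 against 9.16 to 9.67 in CD105- cells. Tendon and fibrous markers were higher for 4 of 7 in each state, and haematopoietic stroma markers for 4 of 4 in CD105+ and 2 of 4 in CD105- cells. Osteoblast markers were lower for 2 of 4 and 4 of 4. Of 8 endothelial markers, Tek and Esam were higher in CD105+ and Tek in CD105- cells. Pericyte and smooth muscle markers were higher for 6 of 8 in CD105+ cells, where their list mean was 9.68 to 9.86 against 7.80 to 8.06 and Cspg4 was lower (-1.54). In CD105- cells 3 of the 8 were higher and 2 lower (Cspg4 at -1.85 and Myh11 at -0.83). Among 8 erythroid markers Tfrc, the transferrin receptor, was lower in both states (-2.60 in CD105+ and -2.99 in CD105- cells) and Ermap was higher in CD105- cells (1.01). Among 8 markers of skeletal muscle and satellite cells Chrna1 was higher in both states (0.75 and 0.61) and Ckm in CD105- cells (0.92). Keratinocyte markers were higher in CD105- cells for 3 of 8 (Krt5 by 2.31, Krt14 by 2.09 and Krt15 by 2.75), with a list mean of 6.26 to 6.92 in Thy+6C3-CD105- against 5.52 to 5.56. In the same comparison 2 of 10 myeloid markers (Laptm5 by 2.29 and Csf1r by 1.21) and 2 of 5 lymphoid markers were higher, with myeloid list means of 5.66 to 5.92 against 5.18 to 5.27. No marker of these lists can be called absent, since an array gives no true zero. Poly-A control RNA, added before amplification, split the arrays into 11 high and 7 low. Within these sets the median difference of the 50 genes along Thy was 0.62 and 0.49 in CD105+ cells and 0.30 and 0.83 in CD105- cells. Medians over all genes were -0.025 and 0.02, then 0.15 and 0.11. Of the 50 genes, 47 and 47 lay above 0 in CD105+ cells and 37 and 48 in CD105- cells. Each population has only 1 or 2 arrays in a set, with 1 array of Thy-6C3-CD105- in the high set.

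Other genes of the same pathways were counted from lists of their own. Of 50 further mitosis genes, 23 were higher and 0 lower along Thy in CD105- cells, and 4 higher and 0 lower in CD105+ cells, again beside 10.5% and 4.03% of all genes. Pttg1, which encodes securin, rose by 2.48 ± 0.56, or 5.57-fold (adjusted p = 0.0069). Its arrays read 9.88, 10.17 and 8.42 in Thy-6C3-CD105- against 11.84, 11.98 and 12.08 in Thy+6C3-CD105-. Hmmr, a spindle and hyaluronan-binding protein, rose by 1.75 ± 0.27 (adjusted p = 0.000368) and, in CD105+ cells, by 1.08. Hmmr was also the one mitosis gene called in Thy+6C3- against Thy-6C3+ among CD105- cells (1.44, adjusted p = 0.0073), and Ncapg2, a condensin subunit, the one called along CD105 in Thy+6C3- cells (1.17 ± 0.23, adjusted p = 0.0146). Of 40 further replication genes, 6 were higher and 1, the histone mRNA-binding Slbp, was lower in CD105- cells, and none passed in CD105+ cells. Slbp differed by -0.83 and, without replicate 3 of Thy-6C3-CD105-, by -0.42, which no longer passed (adjusted p = 0.106). Fen1, the flap nuclease that trims Okazaki fragments, rose by 1.92 ± 0.42, or 3.79-fold (adjusted p = 0.0049).

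Among the regulators upstream of these genes, the CDK inhibitor Cdkn1a and Myc fell along Thy in both CD105 states. Cdkn1a, the inhibitor p21 that halts cyclin-dependent kinases, read 11.02, 10.94 and 11.51 in Thy-6C3-CD105- against 11.23, 11.09 and 11.39 in Thy-6C3-CD105+. In the Thy+ populations it read 10.45, 9.70 and 10.11 in CD105- and 10.45, 9.95 and 9.92 in CD105+ cells. Every Thy+ array lay below every Thy-6C3- array. It fell by 1.07 ± 0.22 (adjusted p = 0.00343) and by 1.13 ± 0.22 (adjusted p = 0.00266), and both calls held in all 27 alternative analyses. It was also lower in Thy+6C3- than in Thy-6C3+ among CD105+ cells, by 1.03 (adjusted p = 0.0118).

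Myc, a growth-promoting transcription factor, fell along Thy by 1.96 ± 0.40 in CD105- cells (adjusted p = 0.00316) and by 1.59 ± 0.40 in CD105+ cells (adjusted p = 0.0184). Its arrays read 10.03, 8.98 and 10.76 in Thy-6C3-CD105- against 7.79, 7.74 and 8.36 in Thy+6C3-CD105-. It also fell along 6C3 in CD105- cells, by 2.02 (adjusted p = 0.0067). Along 6C3 in CD105+ cells its difference was -1.58, which did not pass (adjusted p = 0.061), although the arrays did not overlap. Between Thy+6C3- and Thy-6C3+ cells Myc differed by -0.008 in CD105+ and 0.06 in CD105- cells, so its low level was not particular to Thy+ cells. Cdkn2c (p18) rose in Thy+6C3-CD105- over Thy-6C3-CD105- by 0.73 ± 0.20 (adjusted p = 0.0185) and along 6C3 in CD105- cells by 0.91 (adjusted p = 0.0147). Cdkn1c (p57), with levels between 12.8 and 13.4 in every array, fell by 0.39 ± 0.11 along Thy in CD105- cells (adjusted p = 0.0247). Cdkn1b, Cdkn2a, Cdkn2b and Cdkn2d did not pass, and Cdkn2a and Cdkn2b lay below the median gene, at means of 4.69 and 5.41.

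Among 18 Rb, E2F, MuvB and Foxm1 regulators, 2 rose and 3 fell along Thy in CD105- cells, beside 10.5% and 7.45% of all genes, and none passed in CD105+ cells. None of the 18 passed the F-test in limma, where 10.1% of all genes did. Foxm1 rose by 0.91 ± 0.29 (adjusted p = 0.0392), and without replicate 3 of Thy+6C3-CD105- the difference was 0.52 (adjusted p = 0.194). E2f5, a repressive E2F, rose by 2.05 ± 0.53 (adjusted p = 0.0145), but averaged over its probe sets the difference was -0.18. Rb1, the retinoblastoma protein, its relative Rbl2 and the E2F partner Tfdp1 fell by 1.25, 1.43 and 0.77. Without replicate 3 of Thy+6C3-CD105- the differences of Rbl2 and Tfdp1 were -0.90 and -0.45 and did not pass. None of the D-type cyclins or the kinases Cdk2, Cdk4 and Cdk6 passed along Thy.

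**Figure D5:**
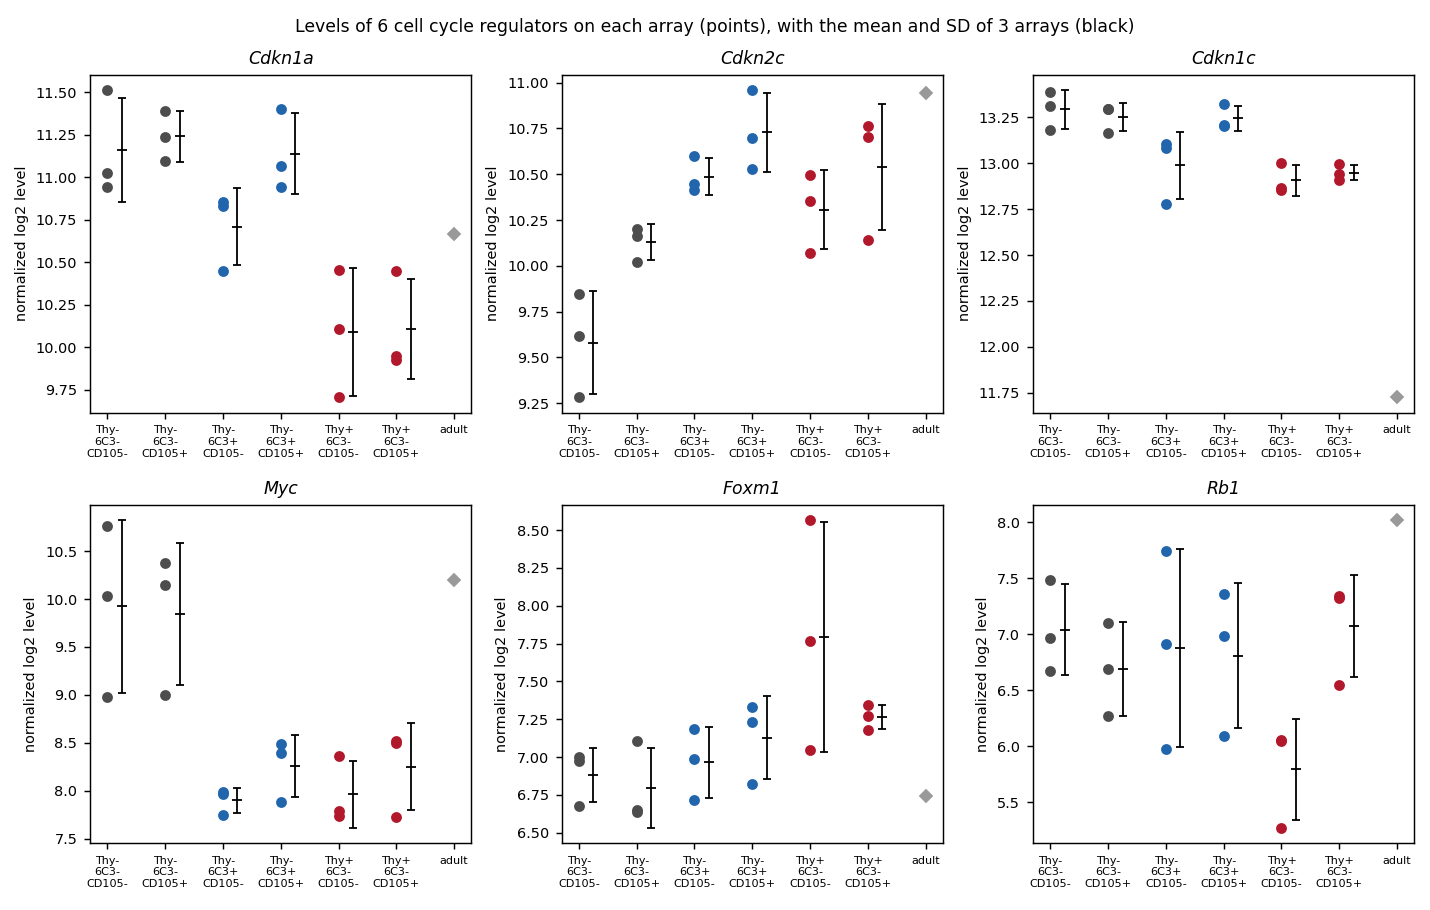
Log2 level (vertical axis) of Cdkn1a, Cdkn2c, Cdkn1c, Myc, Foxm1 and Rb1 in every neonatal array, by population. Points are arrays (diamond, the adult array) and black bars give the mean and SD of 3 arrays; Cdkn1a and Myc are lower in the Thy+ than in the Thy-6C3- populations.

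The single adult array, a description without a test, read below all 18 neonatal arrays for 43 of the 50 genes, where 14.2% of all genes did. These were 27 of 28 mitosis genes and 16 of 22 replication genes. The median difference from the neonatal mean was -1.80. Mki67 read 7.09, Top2a 7.15, Tk1 6.25 and Mcm5 6.84 there, whereas Cdt1 read 9.0 and Pcna 10.07. Age, tissue source and sorted phenotype all differ between this array and the others and cannot be told apart.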

How the data were processed

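RNA of sorted neonatal limb cells had been amplified in a pair of rounds and read on Affymetrix mouse genome arrays, per the labels' protocols. The deposited table holds log2 values for 45101 probe sets (2.55 to 14.6; array medians 5.60 to 6.02). The steps by which the authors made these log2 values from the scans were not given in the sources used here. Since medians differed by more than 0.1, the 19 arrays were quantile normalized. Of the probe sets, 64 were controls, 34945 had 1 gene symbol, 932 several and 9160 none, and only those with 1 symbol were used. No filter on low values was applied. Arrays have no read depth, and precision is limited by the 3 arrays of each population.

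Groups follow the population field in the labels. limma 3.58.1 in R 4.3.3 fitted 1 mean per population over 18 arrays (12 residual degrees of freedom, eBayes with a trend), with 7 single-antigen comparisons, 2 comparisons of Thy+6C3- with Thy-6C3+ cells, 2 interactions and a moderated F-test. Tests were two-sided, with Benjamini-Hochberg adjustment over 18193 genes and a threshold of 0.05. The ± after a difference is its standard error. The script was tested on simulated data. Tables and plots were made with Python 3.11.15, pandas 2.3.3, numpy 2.4.6 and matplotlib 3.10.9.

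Named genes were the 4 members of each role with the smallest F-test p, Mki67, Top2a, Cdk1, Mcm5, Pcna, Cdt1 and E2f1, up to 6 called members per direction and up to 3 called genes of each pathway list. Rrm2, Plk1, Aurka and others outside this rule, the remaining CDK inhibitors, Mcm6 and the genes of the low array were added after their values were seen. The members and lists were chosen with earlier results of these data known. Comparisons that share an array group are not independent of each other. Alternatives were values as deposited, median centring, the mean of a gene's probe sets, a filter on low genes, array weights, the compared populations only, grouping by title, a block for replicate number or poly-A set, each array left out, and, added after the data were seen, both arrays that stand apart left out.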

Additional observations from a re-analysis of the deposited data

How the results depend on the processing

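Members called by the F-test numbered 14, and 30 with array weights, 7 with values as deposited, 22 without the 2 arrays that stand apart, and 7 to 21 with single arrays left out. Along Thy in CD105+ cells the count of 7 became 21 with array weights, 20 in a fit of the compared populations only, 4 with the mean of probe sets, 13 without the 2 arrays and 1 to 11 with single arrays left out. Along Thy in CD105- cells the count of 20 became 1 in a fit of the compared populations only, 7 with median centring, 9 with values as deposited and 6 to 21 with single arrays left out. For comparisons with 0 calls, array weights gave 4 along 6C3 in CD105+ cells, 2 along CD105 in Thy+6C3- cells and 4 in Thy+6C3- against Thy-6C3+ among CD105+ cells. Median centring gave 2 along CD105 in Thy+6C3- cells. Single arrays left out gave 0 to 2 along 6C3 in CD105- cells, 0 to 1 along CD105 in Thy+6C3- cells, 0 to 2 in Thy+6C3- against Thy-6C3+ among CD105- cells and 0 in the other comparisons. The cause of these moves was not tested, and some of the fits hold fewer arrays. Counts over all genes under the alternatives are not given here, so the moves may not be particular to the members. With the mean of probe sets, E2f5 (-0.18) and Rrm1 (-0.0026) changed sign along Thy in CD105- cells. Of the values of single called genes under alternatives, 1949 kept direction and call, 502 lost the call and 2 reversed.

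Replicate numbers did not pair the arrays throughout, but some same-numbered arrays were alike. Replicates 1 and 2 of Thy-6C3-CD105- each correlated best with the same-numbered array of Thy-6C3-CD105+ (r = 0.992 and 0.994). Replicates 1 of Thy+6C3-CD105+ and Thy+6C3-CD105- correlated best with each other (r = 0.989). Arrays of different numbers were paired as well. Replicate 3 of Thy-6C3+CD105+ and replicate 1 of Thy-6C3+CD105- correlated best with each other (r = 0.990). So did replicate 2 of Thy+6C3-CD105- and replicate 3 of Thy-6C3+CD105- (r = 0.985). What these arrays share was not tested. Deviations of same-numbered arrays from their population means correlated at a mean of 0.01 over 45 pairs (-0.56 to 0.67), 19 of them above 0.1. By these deviations, 7 of 18 arrays correlated best with their own number. With the replicate block the F-test called 13 members, the Thy comparisons 8 and 21, and CD105 in Thy+6C3- cells 1. Probe sets near the lower end of the scale, such as that of Tyms, limit what can be seen of a difference.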
